A study of Homo sapiens with 16 samples.

Results

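The 10 genes GREB1, CTSD, PDZK1, MYBL1, NRIP1, IGFBP4, SIAH2, FKBP4, OLFM1 and RARA, long used as readouts of estrogen action in breast cancer cells, were followed through colon cancer cells given estrogen receptor beta (ERB, the product of ESR2). They were chosen by symbol in the authors' FPKM table and joined by Ensembl identifier to the count table. They stand for 10 of 63677 identifiers with counts. PDZK1 had a further identifier with 0 reads in every library, so 11 identifiers matched and 10 carried reads. All 10 genes passed the low-count filter that left 17464 genes to be tested.

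Messenger RNA of 2 human colon cancer lines, SW620 and SW480, was sequenced in 16 libraries that form 8 groups of 2. In each line there were untransduced parental cells, cells transduced with an empty vector and cells transduced with ERB, all without treatment. The remaining groups were ERB-transduced SW620 cells kept for 24 h with the solvent DMSO or with 10 nM estradiol, the main natural estrogen. All groups were cultured in DMEM with fetal bovine serum, and the labels do not say that the serum was stripped of steroids. SW620 and SW480 are established lines from a lymph node metastasis and from the primary colon tumour of the same patient. Estradiol was given only to cells that carry ERB in these libraries, so no estradiol response without the receptor was analysed here. Nothing in the labels says that libraries I and II of a group came from separate cultures, or whether a transduced line is a clone, so p-values here describe library-to-library spread, which may be technical.

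Estradiol enters the cell and binds estrogen receptors, which are held ready for ligand by HSP90 and its cochaperones. The receptor then binds DNA as a dimer at estrogen response elements, or is tethered there through factors such as AP-1 and SP1, and recruits coactivators or corepressors. The 2 receptor subtypes share most of their DNA-binding domain and can differ in the direction in which they move a target. In breast cancer cells, where alpha is the main subtype, most of these genes are induced by estradiol, whereas the normal colon epithelium is known chiefly for the beta subtype.

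Sequencing depth ran from 12743940 to 18948283 reads per library. ESR2 had 100 to 187 reads in the 8 libraries of ERB-transduced cells and 0 to 4 in the other 8, and ESR1, the gene of the alpha subtype, had 0 reads in all 16. Markers of colon epithelium summed to 3170 to 15600 CPM (reads scaled to a common library size), although CDX1 had 0 reads throughout, whereas markers of fibroblasts (2.06 to 11.7 CPM, COL3A1 at 0), endothelium (0.534 to 2.48, PECAM1 at 0) and smooth muscle (0.235 to 2.27) stayed near background. Libraries with an SW480 label did not all carry the expression of that line. Marker genes of a line were picked from these same data. They were at least 8-fold higher in each of its parental libraries than in each parental library of the other line. Their values in the parental libraries therefore follow from that rule, and the transduced libraries had no part in it. The 328 genes that mark parental SW480 had a median of 2.34 and 2.46% of their parental level in the libraries that the labels call empty vector SW480, 21.7 and 22.7% in those called ERB-transduced SW480, and only 1.53 to 2.1% in the 10 SW620 libraries. The 31 genes that mark parental SW620 stood at 28.8 and 74.6% of their level there in the libraries called empty vector SW480, at 62 and 54.1% in those called ERB-transduced SW480, at 4.9 and 5.02% in parental SW480 and at 35.1 to 112% in the SW620 libraries. The line labels of these 4 transduced libraries are therefore in doubt, and they are called libraries labelled SW480. None of the 10 genes belongs to either marker set. Libraries also differed in a trend with base composition: relative to the 16-library mean, the tenth of genes poorest in G and C lay 1.08 and 1.3 higher on the log2 scale in the DMSO libraries and 1.85 higher in parental SW480 library II, and 1.42 lower in SW480 empty vector library II and 1.73 and 0.82 lower in the SW480 ERB libraries.

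RefSeq promoter sequence, from 250 bases upstream of an annotated start up to it (build GRCh38.p14), was at hand for 7 of the 10 genes in 14 windows; GREB1, MYBL1 and FKBP4 had no entry. On both strands, 4 motifs were searched, namely the full estrogen response element GGTCANNNTGACC, its single arm GGTCA, which every full element also contains, the AP-1 site TGANTCA and the GC box GGGCGG bound by SP1. None of the 14 windows held the full element, which occurred in 0.0399% of 35116 windows of all genes, and none held the AP-1 site (6.57% of all windows). The single arm was found in 5 windows of 4 genes (CTSD, RARA, NRIP1 and PDZK1), against 32.6% of all windows, and the GC box in 11 windows of 6 genes, all but PDZK1, against 42.6% of all windows. A match is a description of letters, and a window of this size leaves out distant enhancers. The stretches below are shown for genes that carry patterns described further on. CTSD, RARA and IGFBP4 varied together and against NRIP1 over the libraries. PDZK1 was among the genes low after both treatments, and OLFM1 was the gene called in libraries labelled ERB-transduced SW480. The stretches are printed 5′ to 3′ on the strand of the gene and exclude bases that the annotation assigns to an exon. Capitals mark single arms and GC boxes on either strand.
CTSD, chr11:1763993-1764177: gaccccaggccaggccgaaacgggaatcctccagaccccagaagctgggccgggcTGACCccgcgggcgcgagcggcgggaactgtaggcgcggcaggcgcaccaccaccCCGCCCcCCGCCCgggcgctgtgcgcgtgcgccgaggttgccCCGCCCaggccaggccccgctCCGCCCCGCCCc
RARA, chr17:40308930-40309179: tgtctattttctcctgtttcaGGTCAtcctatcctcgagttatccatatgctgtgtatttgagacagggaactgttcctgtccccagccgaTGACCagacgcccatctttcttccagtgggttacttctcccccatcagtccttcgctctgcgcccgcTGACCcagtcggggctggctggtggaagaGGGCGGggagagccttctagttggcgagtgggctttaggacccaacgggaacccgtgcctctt
IGFBP4, chr17:40443200-40443449: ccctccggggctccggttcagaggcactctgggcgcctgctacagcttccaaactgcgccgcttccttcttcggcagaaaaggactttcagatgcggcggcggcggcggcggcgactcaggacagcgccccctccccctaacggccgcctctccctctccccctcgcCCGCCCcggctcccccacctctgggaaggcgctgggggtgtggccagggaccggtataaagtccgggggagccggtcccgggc
NRIP1, chr21:15065001-15065250: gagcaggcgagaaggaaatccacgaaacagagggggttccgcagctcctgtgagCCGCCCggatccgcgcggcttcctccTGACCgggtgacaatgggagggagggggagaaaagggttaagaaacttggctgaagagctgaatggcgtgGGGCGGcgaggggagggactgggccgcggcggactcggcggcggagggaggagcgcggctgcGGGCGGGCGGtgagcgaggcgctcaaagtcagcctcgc
PDZK1, chr1:145707401-145707650: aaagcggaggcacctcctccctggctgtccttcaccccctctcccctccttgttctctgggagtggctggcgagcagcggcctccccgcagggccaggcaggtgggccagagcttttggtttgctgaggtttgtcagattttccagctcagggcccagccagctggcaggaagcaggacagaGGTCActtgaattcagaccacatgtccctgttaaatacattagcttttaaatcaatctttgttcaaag
OLFM1, chr9:135075255-135075421: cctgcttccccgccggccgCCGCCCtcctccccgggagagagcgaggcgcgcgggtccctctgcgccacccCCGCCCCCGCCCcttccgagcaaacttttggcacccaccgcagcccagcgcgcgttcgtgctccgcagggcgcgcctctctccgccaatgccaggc
In the full window of CTSD, 3 single arms and 5 GC boxes were found, part of which lie in the exonic bases not shown. The first RARA start, shown here, had 3 single arms and 1 GC box, the IGFBP4 window 1 GC box and no single arm, the second NRIP1 start 1 single arm and 4 GC boxes, and the first PDZK1 start 1 single arm and no GC box.

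Levels were compared between genes per transcript length, as the authors' FPKM. CTSD, the lysosomal protease cathepsin D, had the highest median over the 16 libraries, 212 FPKM (80.7 to 414). FKBP4, an immunophilin that docks on HSP90 in steroid receptor complexes, followed at 173 FPKM (83.9 to 225) and IGFBP4, a secreted binder of insulin-like growth factors, at 115 FPKM (62.9 to 250). The ranges of these neighbours overlapped, so their order rests on the medians. SIAH2, a ubiquitin ligase, stood at 17.3 FPKM (12.9 to 30.2), and RARA, the retinoic acid receptor alpha, at 12.2 FPKM (8.68 to 22.6). The other 5 genes were low: PDZK1, a scaffold for membrane transporters, had a median of 2.31 FPKM (0.353 to 8.23), OLFM1, a secreted olfactomedin, 1.07 FPKM (0.0962 to 14.6), MYBL1, a transcription factor of the MYB family, 0.484 FPKM (0.0778 to 4.15), GREB1, a chromatin cofactor of estrogen receptor alpha, 0.431 FPKM (0.204 to 1.32) and NRIP1, a corepressor of nuclear receptors, 0.245 FPKM (0 to 1.35). Adjacent genes of this low set overlapped too, whereas the lowest FPKM of CTSD, FKBP4 and IGFBP4 exceeded the highest of SIAH2 and RARA, without overlap.

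**Figure D1:**
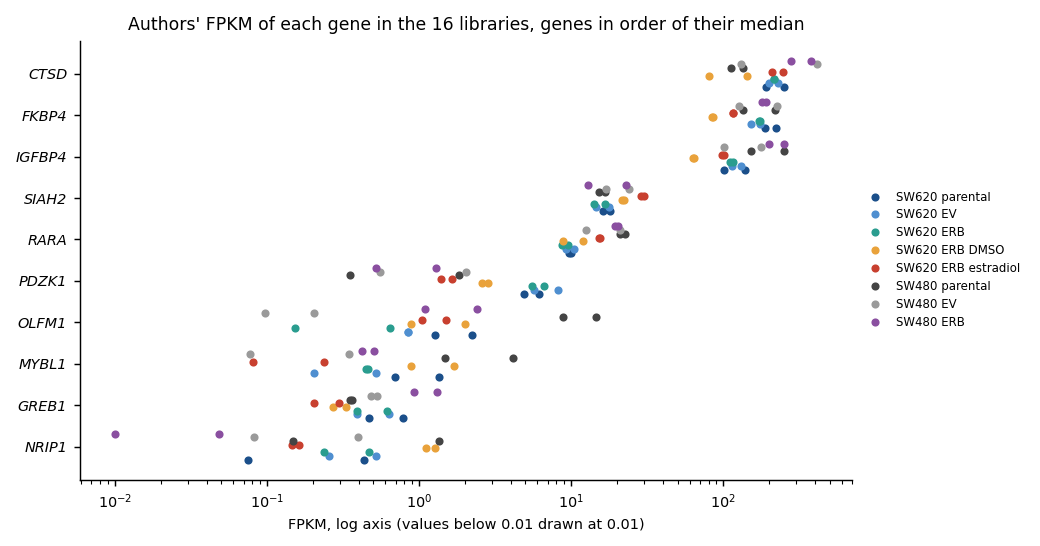
FPKM of the 10 genes (vertical axis, in order of their median) in each of the 16 libraries (dots, coloured by group, log axis). CTSD, FKBP4 and IGFBP4 lie above all values of SIAH2 and RARA, and the 5 genes with the lowest medians reach down to 1 FPKM or less.

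Across libraries the genes varied to very different degrees. SIAH2 was the steadiest, with a range of 1.07 on the log2 CPM scale over 16 libraries, against a median range of 2.73 over all tested genes, while OLFM1 (6.36), NRIP1 (6.32) and MYBL1 (6.18) varied most. Among the 6 untreated SW620 libraries the ranges shrank to 0.38 for SIAH2, 0.41 for RARA, 0.51 for PDZK1 and 0.6 for GREB1, all under the median of 0.77, and stayed at 2.34 for OLFM1, 2.11 for NRIP1 and 1.62 for MYBL1. Transcript composition goes with part of this. CTSD, RARA and IGFBP4 have transcripts of 64.0, 63.0 and 62.5% G and C, whereas those of MYBL1 and NRIP1 have 37.4 and 38.8%. When each library's smooth trend with G and C content and length was removed, the 16-library range went from 3.86 to 1.22 for CTSD, from 6.32 to 3.35 for NRIP1, from 3.1 to 1.82 for IGFBP4 and from 6.18 to 4.17 for MYBL1. It widened for OLFM1, to 7.51, and for SIAH2, to 1.92.

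**Figure D2:**
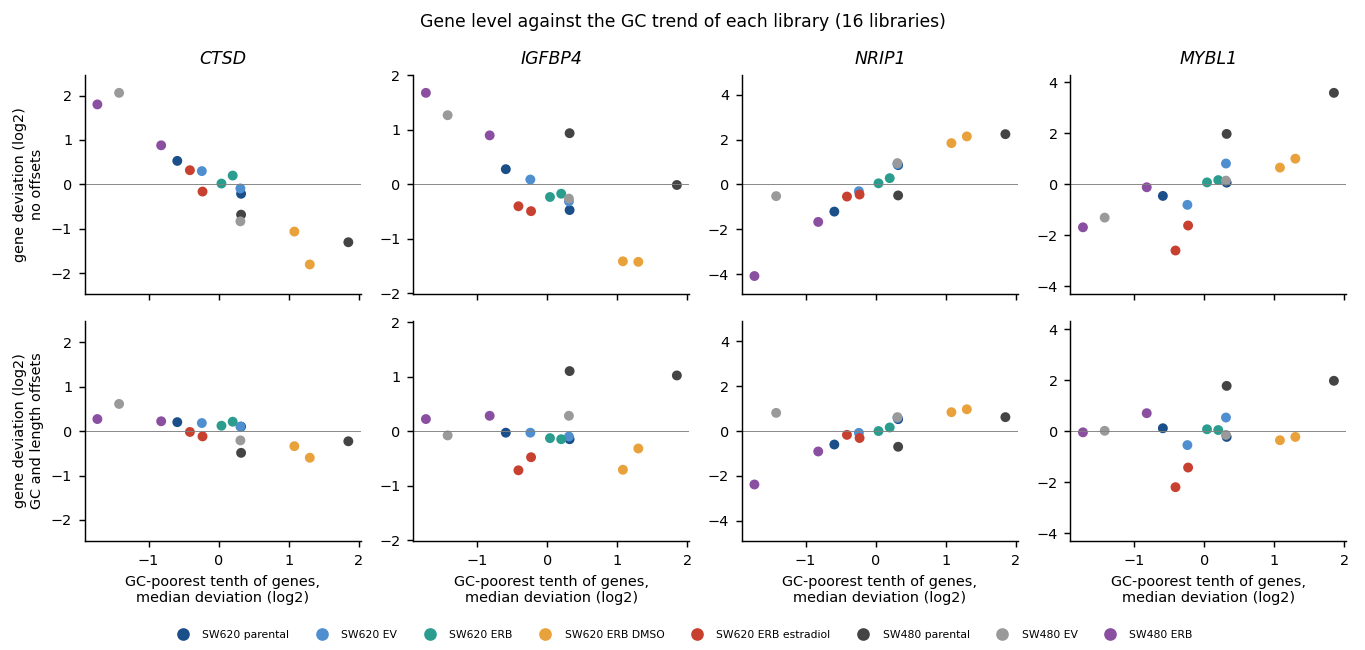
Deviation of CTSD, IGFBP4, NRIP1 and MYBL1 from their 16-library mean (vertical axis, log2) against the median deviation of the tenth of genes poorest in G and C in the same library (horizontal axis, log2), before (top) and after (bottom) removal of the trend. Dots are libraries; CTSD and IGFBP4 slope down and NRIP1 and MYBL1 slope up before removal, and the range of CTSD goes from 3.86 to 1.22.

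The 10 genes did not vary as 1 set. Over the 16 libraries, which share the composition trend and 2 line backgrounds, IGFBP4 went with RARA (Pearson r = 0.86) and with FKBP4 (r = 0.85), and CTSD with IGFBP4 (r = 0.77) and RARA (r = 0.72). NRIP1 ran against CTSD (r = -0.82), IGFBP4 (r = -0.79) and FKBP4 (r = -0.73) and with MYBL1 (r = 0.62). PDZK1 ran against RARA (r = -0.64) and SIAH2 (r = -0.55). Among all tested genes, those with the pattern most like OLFM1 over the 16 libraries were GRAMD4 (r = 0.937), ZDHHC22 and KLHL29, those most like MYBL1 were PHTF2 (r = 0.967), ABHD3 and FAM111B, those most like NRIP1 were ZNF33B (r = 0.98), RBBP8 and DAAM1, and those most like PDZK1 were RCSD1 (r = 0.963), GNG2 and KRTAP3-3.

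**Figure D3:**
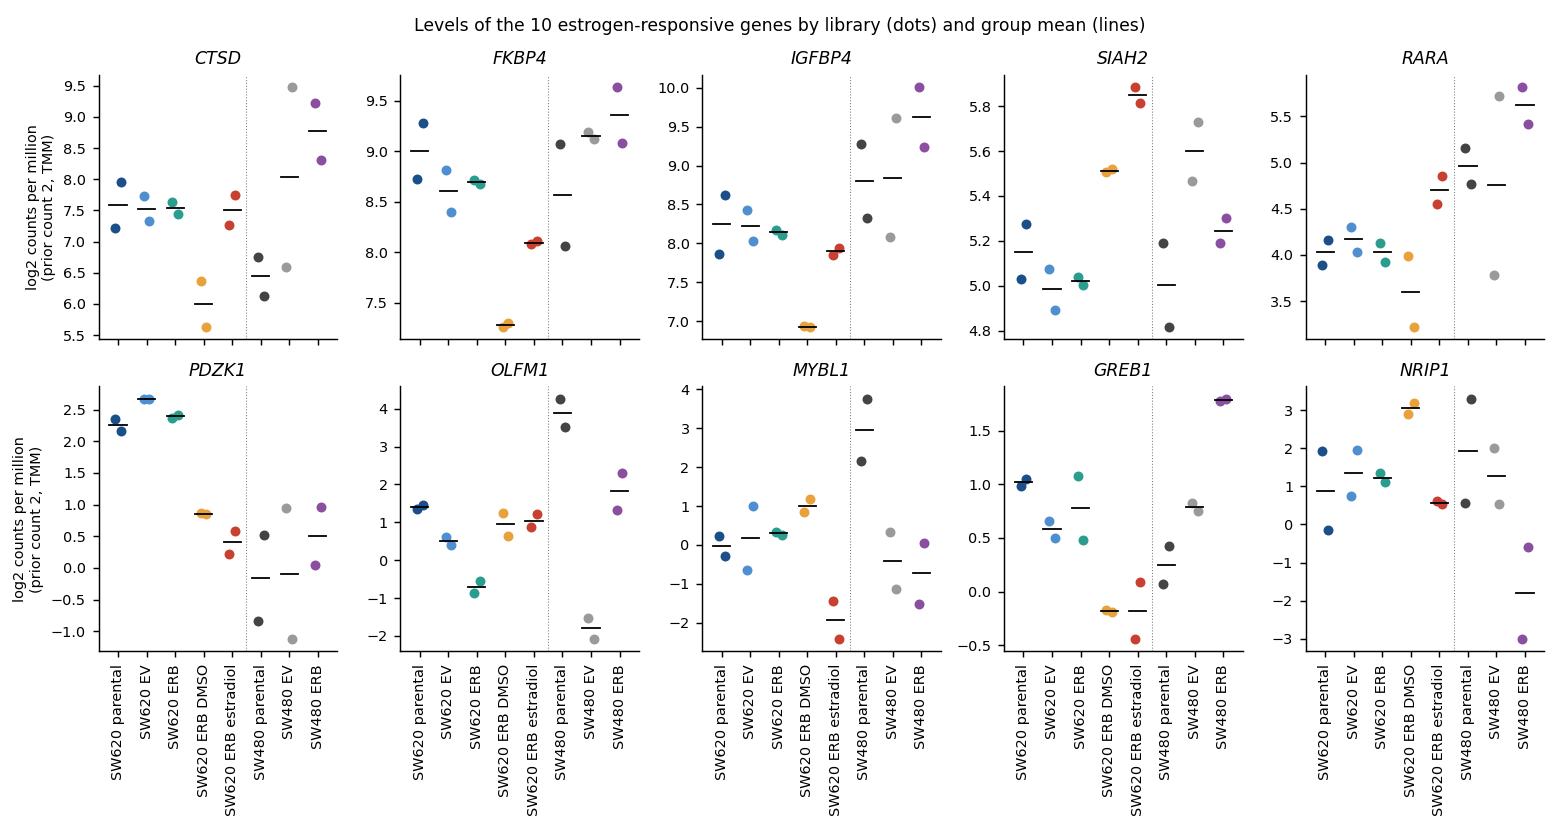
Level of each gene (log2 CPM, the scaled reads, with a prior count of 2, vertical axis) in the 2 libraries of each of 8 groups (dots) with the group mean (line); the dotted line divides SW620 from SW480 libraries. SIAH2 spans 1.07 on this scale, and OLFM1, NRIP1 and MYBL1 span over 6.

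Transduction with ERB was first compared with empty vector in untreated SW620 cells. No gene of the panel passed the test, edgeR's quasi-likelihood test at an adjusted p under 0.05 (0 of 10; 0.00573% of all genes tested, which is ESR2 alone). At an unadjusted p under 0.05 there was 1 gene of the 10, OLFM1, and 94 of all genes. DESeq2 and limma on FPKM also called 0 of the panel. The ERB libraries held 7 and 11 reads of OLFM1 and the controls 24 and 23, so the groups did not overlap, and its log2 fold change was -1.37 ± 0.49 (SE, n = 2 against 2, adjusted p = 1). The other 9 genes lay between -0.28 (PDZK1) and 0.24 (GREB1). CTSD was at 198 and 174 CPM with ERB and 212 and 161 with empty vector, and FKBP4 at 422 and 409 against 449 and 338, so that the ERB libraries lay inside the span of the controls. GREB1 had 33 and 25 reads against 25 and 25, and PDZK1 84 and 103 reads against 107 and 121. A fit of the SW620 libraries alone gave the same count, 0 of 10 (0.00605% of all genes tested). Against parental SW620, OLFM1 was again the gene farthest from no difference. It had 39 and 34 reads in parental cells, and its log2 fold change was -2.34 ± 0.48 (adjusted p = 0.346); none of 10 genes passed (0.00573% of all genes, again ESR2 alone). In the fit of the SW620 libraries alone OLFM1 passed at -2.32 (adjusted p = 0.0259), 1 of 10 genes called against 0.345% of all genes, and DESeq2 also called it (adjusted p = 0.01616). Empty vector lay between parental cells and ERB for OLFM1, at 24 and 23 reads, and empty vector against parental SW620 called 0 of 10 genes (edgeR, 0% of all genes; 0 of the 10 and 276 of all genes at an unadjusted p under 0.05; DESeq2 called 0 of the 10 and 11 of all).

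In libraries labelled SW480, ERB against empty vector called OLFM1 only, 1 of 10 genes against 1.10% of all genes tested. The 2 ERB libraries held 21 and 63 reads of OLFM1 and the controls 3 and 1, far apart. The ratio of the summed reads, scaled to library size, was 20.6 (95% counting interval 7.76 to 77.4), and the log2 fold change was 4.30 ± 0.59 (adjusted p = 0.003863). That call ended in a fit of the SW480 libraries alone (4.27, adjusted p = 0.2833) and on log2(FPKM + 1), where the fold change was 1.21 (adjusted p = 0.2313), and it held without any 1 of the 4 libraries. The OLFM1 difference between ERB and empty vector was not the same in SW620 and in libraries labelled SW480. The line labels of the latter are in doubt. The interaction was 5.68 ± 0.77 (adjusted p = 0.01224), 1 of 10 genes against 0.189% of all. It was 5.57 and 5.79 without either SW620 empty vector library and 5.51 and 5.9 without either SW620 ERB library. There it missed the threshold, in fits that called few genes of any kind. On log2(FPKM + 1) it also missed the threshold (1.63, adjusted p = 0.5049).

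Parental SW480 cells set the scale for OLFM1 in these libraries. They had 310 and 260 reads, 19.1 and 11.4 CPM, the highest level of any group. The empty vector libraries reached 1.48 and 0.73% of that OLFM1 level and the ERB libraries 15.7 and 31.6%. The genes that mark parental SW480 moved beside it, at 2.34 and 2.46% in the controls and 21.7 and 22.7% in the ERB libraries, and their part in the OLFM1 result was not tested. IGFBP3, a family member of IGFBP4 that was also called between these groups (3.71 ± 0.41, adjusted p = 0.00096), showed the same arrangement, with 4.39 and 2.93% of its parental level in the controls and 40.3 and 56.3% in the ERB libraries. All SW620 libraries had OLFM1 at 2.77 to 17.4% of parental SW480, above both SW480 empty vector libraries.

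**Figure D4:**
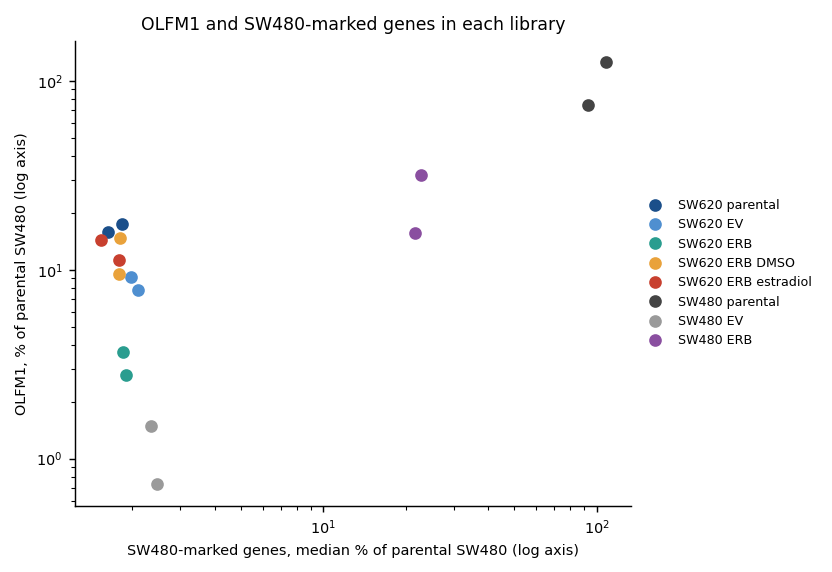
OLFM1 (vertical axis, % of its mean in parental SW480, log axis) against the median of 328 genes that mark parental SW480 (horizontal axis, % of parental, log axis) in the 16 libraries. The 2 SW480 empty vector libraries sit lowest, at 0.73 and 1.48% of OLFM1, and the 2 SW480 ERB libraries at 15.7 and 31.6% lie between them and parental SW480.

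The other 9 genes did not pass between ERB and empty vector in libraries labelled SW480. GREB1 had 29 and 44 reads with ERB, 3.31 and 3.36 CPM, against control levels of 1.65 and 1.56 CPM, with no overlap and a log2 fold change of 1.05 ± 0.36 (adjusted p = 0.319), 0.93 with the composition trend removed (adjusted p = 0.1828) and 0.95 to 1.11 when 1 library was left out. The reads of NRIP1 were 0 and 7 in the ERB libraries and 52 and 12 in the controls, a ratio of 9.31 in favour of empty vector (4.27 to 24.1) and a log2 fold change of -3.11 ± 1.19 (adjusted p = 0.401). The GC-poor decile of genes lay 1.73 and 0.82 lower in these ERB libraries and 1.42 lower in empty vector library II, and with that trend removed the NRIP1 difference was -2.31 ± 0.77 (adjusted p = 0.143). Leaving out 1 library moved it from -2.08, without empty vector library I, to -8.44, without ERB library II, which leaves the ERB group at 0 reads, so the last is no measured size; none of the 4 passed. With no filter on low counts NRIP1 passed as well (-3.16, adjusted p = 0.000604). CTSD was at 600 and 317 CPM in the ERB libraries but at 96.8 and 718 in the controls, so 1 control library lay below and the other above both ERB libraries. Without empty vector library II, CTSD and RARA passed, at 2.18 and 1.79 (adjusted p = 0.04197 and 0.0384).

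Estradiol for 24 h was compared with DMSO in ERB-transduced SW620. None of the 10 genes passed in the 16-library edgeR fit (0% of all genes tested), with 3 of the 10 and 3469 of all genes at an unadjusted p under 0.05. DESeq2 called 0 of the 10 and 74 of all genes, and limma on log2(FPKM + 1) 0 and 17. MYBL1, which activates cell cycle and germ cell genes, had 4 and 1 reads with estradiol against 39 and 37 with DMSO, a level 15.3-fold lower by summed reads (counting interval 6.27 to 48.4) and a log2 fold change of -3.55 ± 0.94 (adjusted p = 0.238). NRIP1 had 23 and 21 reads against 173 and 157, or -2.59 ± 0.97 (adjusted p = 0.238). For both genes the estradiol libraries were far below the DMSO libraries. CTSD stood at 153 and 215 CPM against 82.5 and 49.2 (1.48 ± 0.69), IGFBP4 at 231 and 246 against 122 and 121 (0.97 ± 0.48), FKBP4 at 270 and 277 against 153 and 157 (0.82 ± 0.34) and RARA at 23.3 and 28.8 against 15.8 and 9.18 (1.06 ± 0.51), again without overlap and each at an adjusted p of 0.238. SIAH2 was at 59.1 and 56.1 against 45.3 and 45.8 CPM (0.34 ± 0.25). GREB1, OLFM1 and PDZK1 differed by less than their standard error.

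In a fit of the 10 SW620 libraries alone, whose spread is smaller, 6 of the 10 genes passed between estradiol and DMSO, against 53.0% of all genes tested. CTSD (1.49), IGFBP4 (0.99), FKBP4 (0.83) and RARA (1.07) rose and NRIP1 (-2.57) and MYBL1 (-3.54) fell, with adjusted p from 0.00687 to 0.00983. The genes that rose have GC-rich transcripts apart from FKBP4 (51.1%), and those that fell are the most GC-poor of the panel. The DMSO libraries held an excess of GC-poor transcripts, and the part of this trend in the differences was not tested. With that trend also removed, 4 of 10 genes passed, against 17.7% of all: FKBP4 (0.58, adjusted p = 0.01431) and CTSD (0.36, 0.02725) rose and MYBL1 (-2.12, 0.03857) and NRIP1 (-1.20, 0.03727) fell. RARA came to 0.03 and IGFBP4 to -0.12, and SIAH2, OLFM1 and GREB1 turned from 0.34, 0.07 and 0.03 in the 16-library fit to -0.38, -0.82 and -0.24, none of them called.

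The DMSO libraries stood apart from the other SW620 libraries, so they were set against untreated ERB-transduced cells, and the estradiol libraries likewise. These 3 comparisons share groups and are not independent of each other. DMSO against no treatment called 2 of 10 genes, against 6.15% of all genes. FKBP4 fell by 1.42 ± 0.35 on the log2 scale (adjusted p = 0.03591), from 422 and 409 CPM to 153 and 157, and OLFM1 rose by 1.90 ± 0.48 (adjusted p = 0.04014), from 7 and 11 reads to 53 and 25. Both calls ended on FPKM and with a replicate block, with fold changes in the same direction. They also ended without any 1 of the 4 libraries, in fits that called few genes of any kind. There FKBP4 lay between -1.45 and -1.40 and OLFM1 between 1.53 and 2.18. PDZK1 was lower in both DMSO libraries (40 and 29 reads against 84 and 103, -1.60 ± 0.58, adjusted p = 0.106), as were GREB1 (-1.09 ± 0.37), CTSD (-1.50 ± 0.69) and IGFBP4 (-1.22 ± 0.48), and NRIP1 was higher (173 and 157 against 40 and 40 reads, 1.88 ± 0.93). SIAH2 had 45.3 and 45.8 CPM against 32.8 and 32, a difference of 0.49 ± 0.25. In the SW620 libraries alone 8 of 10 genes passed, against 48.8% of all: OLFM1, NRIP1 and SIAH2 rose and FKBP4, PDZK1, IGFBP4, CTSD and GREB1 fell. With the composition trend removed as well, IGFBP4 no longer passed (-0.34, adjusted p = 0.0527), and the other 7 did, against 46.6% of all. Their sizes moved: CTSD went from -1.50 to -0.59 and NRIP1 from 1.89 to 0.86, whereas SIAH2 went from 0.49 to 1.01 and OLFM1 from 1.91 to 2.54.

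Estradiol against no treatment called 0 of 10 genes in the 16-library edgeR fit (1.73% of all genes), with 5 of the 10 and 2604 of all genes at an unadjusted p under 0.05. DESeq2 called 3 of the 10 and 1092 of all, and limma on log2(FPKM + 1) 0 of the 9 it tested and 632 of 19268. PDZK1 had 17 and 22 reads with estradiol and 84 and 103 without, a log2 fold change of -2.08 ± 0.60 (adjusted p = 0.106). MYBL1 had 4 and 1 reads against 19 and 21, 7.01-fold lower by summed reads (2.77 to 22.8), or -2.78 ± 0.97 (adjusted p = 0.184). OLFM1 had 28 and 35 reads against 7 and 11, or 1.97 ± 0.48 (adjusted p = 0.0626). In each case both estradiol libraries lay on the same side of both untreated ones. SIAH2, at 59.1 and 56.1 CPM against 32.8 and 32, differed by 0.83 ± 0.25 (adjusted p = 0.126), the highest CPM of this gene in any group. With the composition trend removed, SIAH2 was highest with DMSO (5.99 and 6.14 log2 CPM, against 5.79 and 5.6 with estradiol). GREB1 had 10 and 15 reads against 33 and 25 (-1.06 ± 0.38), and CTSD overlapped, at 153 and 215 CPM against 198 and 174.

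The SW620 libraries alone called 4 of 10 genes for estradiol against no treatment, with 20.9% of all genes called: SIAH2 (0.84, adjusted p = 0.00513) and OLFM1 (1.98, 0.004942) rose and PDZK1 (-2.07, 0.00072) and MYBL1 (-2.77, 0.0296) fell. With the trend removed, 8 of 10 passed, against 38.3% of all: SIAH2 (0.63), OLFM1 (1.72) and RARA (0.44) rose, and PDZK1 (-2.04), MYBL1 (-2.43), GREB1 (-1.15), FKBP4 (-0.75) and IGFBP4 fell. PDZK1, GREB1, IGFBP4 and FKBP4 lay below untreated cells in both DMSO and both estradiol libraries, and OLFM1 and SIAH2 lay above them. IGFBP4 had 122 and 121 CPM with DMSO and 231 and 246 with estradiol, against 288 and 276 untreated. MYBL1 was below untreated cells (1.14 and 1.07 CPM) with estradiol (0.244 and 0.0627) and above them with DMSO (1.66 and 2.14). The rise with DMSO was not called in the 16-library edgeR fit (0.77 ± 0.74, adjusted p = 0.4899). With the composition trend removed, MYBL1 with DMSO lay below untreated cells as well (-0.19 and -0.06 against 0.21 and 0.24 log2 CPM). FKBP4 was lowest with DMSO (153 and 157 CPM), intermediate with estradiol (270 and 277) and highest untreated (422 and 409), with no overlap. An F test over all 5 SW620 groups called 0 of 10 genes in the 16-library fit (5.97% of all genes). At an unadjusted p under 0.05 there were 6 of the 10 and 3945 of all 17464 genes. DESeq2 called 5 of the 10 and 3257 of all. In the SW620 libraries alone the F test called 10 of 10 (62.0% of all).

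**Figure D5:**
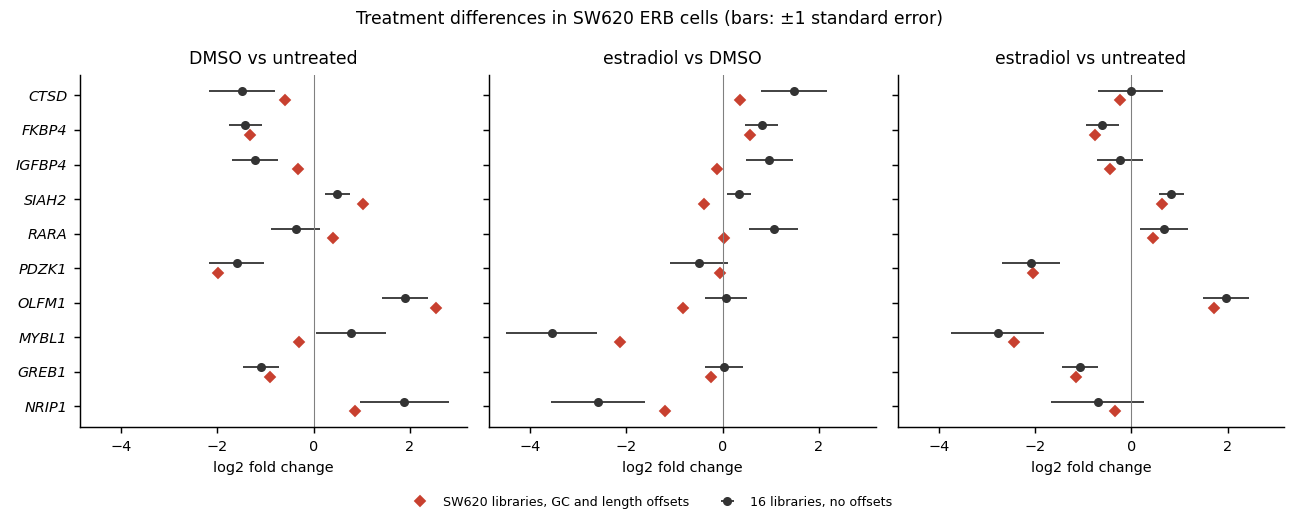
Log2 fold changes (horizontal axis) of the 10 genes for DMSO against no treatment, estradiol against DMSO and estradiol against no treatment in ERB-transduced SW620. Black dots with bars of 1 standard error are the 16-library fit and red diamonds the SW620 fit with the composition trend removed; MYBL1 lies left of 0 in both comparisons of estradiol, and IGFBP4, SIAH2, OLFM1 and GREB1 change side between fits in estradiol against DMSO, as do MYBL1 and RARA in DMSO against no treatment.

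Further genes of estrogen signalling gave the setting for these values. Of 36 other estrogen-responsive genes, 28 were tested. For ERB against empty vector in SW620, edgeR and DESeq2 called 0 and none had an unadjusted p under 0.05 (median log2 fold change 0, all genes -0.01). For estradiol against DMSO both also called 0 of the 28 (median 0.28, all genes 0.06). At an unadjusted p under 0.05 in edgeR there were 5 of 28, against 3469 of all 17464 genes. The SW620 libraries alone called 13 of 28 against 53.0% of all genes. Estradiol against no treatment called 3 of 28, against 1.73% of all genes, each of them higher: STC2, a secreted glycoprotein, at 287 and 265 CPM against 46 and 44.1, XBP1, a transcription factor of the secretory pathway, at 452 and 422 against 113 and 115, and MYC at 654 and 628 against 263 and 279. The DMSO libraries held like levels of STC2 (290 and 255 CPM), XBP1 (340 and 357) and MYC (565 and 503). DMSO against no treatment called 3 of 28 higher and 3 lower, against 6.15% of all genes in either direction, among them the adenosine receptor ADORA1 (-3.36 ± 0.61) and the epithelial factor ELF3 (-2.21 ± 0.41). In libraries labelled SW480, ERB against empty vector called KRT13 alone of these 28, against 1.10% of all genes (4.62 ± 0.84, adjusted p = 0.022), a keratin with 11.9 and 7.1 CPM in the ERB libraries, 0.15 and 0.668 in the controls and 5.56 and 2.62 in parental SW480.

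Among 20 receptors, coregulators and partner factors, 17 were tested, and ESR2 was the only one called for ERB against empty vector in either line. GPER1, a membrane estrogen receptor, fell with DMSO (-2.27 ± 0.40, adjusted p = 0.011), from 45.4 and 42.2 CPM to 11.1 and 6.98, and had 15.2 and 22.4 with estradiol. Against untreated cells, estradiol called 0 of this list by edgeR and DESeq2, with 1 of 17 genes at an unadjusted p under 0.05, against 2604 of all 17464. All 10 HSP90 partners of steroid receptors were tested. With DMSO, 2 of 10 were called, against 6.15% of all genes. STIP1 (-1.26 ± 0.28) and DNAJB1 (-1.25 ± 0.33) fell, beside FKBP4. For estradiol against no treatment edgeR called 0 of the 10 partners (median -0.82, all genes 0). DESeq2 called 2, against 1092 of all 17464 genes, and 2 had an unadjusted p under 0.05 in edgeR, against 2604 of all. Of 18 family members of the panel, 12 were tested, of which 2 were called with DMSO, against 6.15% of all genes. MYBL2, a relative of MYBL1, fell (-2.67 ± 0.58) and IGFBP1 rose (2.81 ± 0.66). For estradiol against no treatment edgeR called 0 of the 12, with 4 at an unadjusted p under 0.05, against 2604 of all 17464 genes. DESeq2 called 3 of the 12 and 1092 of all.

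Some genes also differed between transduced libraries labelled SW480 and parental SW480, and between the parental lines. The vector cannot be told apart from the line there, because the line labels of the transduced libraries are in doubt. Libraries labelled SW480 with empty vector differed from parental SW480 at 3 of 10 genes, against 30.9% of all. OLFM1 fell from 310 and 260 reads to 3 and 1 (-6.37 ± 0.59, adjusted p = 5.31e-05), a level 119-fold lower by summed reads (46.1 to 437), and MYBL1 from 70 and 308 reads to 15 and 3 (-3.53 ± 0.80, adjusted p = 0.007614). CTSD rose by 2.20 ± 0.70 (adjusted p = 0.03448), but its difference was 0.62 with the composition trend removed (adjusted p = 0.03759) and 0.11 without empty vector library II, which alone held 718 CPM, and the call also ended without either parental library (adjusted p = 0.05742 and 0.2189). MYBL1 missed the threshold without parental library II (-2.48, adjusted p = 0.06574), the library with the largest excess of GC-poor transcripts. FKBP4 passed without parental library I (1.07, adjusted p = 0.03159) and SIAH2 without empty vector library I (0.71, 0.03363). In the SW480 libraries alone OLFM1 kept its call (adjusted p = 0.0226). With the composition trend removed, MYBL1 stood at 0.02 and 0.18 log2 CPM with empty vector against 1.94 and 2.14 in parental cells.

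ERB against parental cells in libraries labelled SW480 called 5 of 10 genes, against 44.4% of all. GREB1 rose by 1.62 ± 0.36 (adjusted p = 0.007888), from 15 and 28 reads to 29 and 44, and CTSD by 2.37 ± 0.71 (adjusted p = 0.02177), from 108 and 69.8 CPM to 600 and 317. Lower with ERB were OLFM1 (-2.06 ± 0.43, adjusted p = 0.006115), MYBL1 (-3.86 ± 0.82, 0.006494) and NRIP1 (-4.18 ± 1.17, 0.01766), the last with 0 and 7 reads against 22 and 224. All 5 calls ended without ERB library I, in a fit that called far fewer genes of any kind. The fold changes there were 1.56 for GREB1, 1.77 for CTSD, -1.73 for OLFM1, -3.33 for MYBL1 and -3.44 for NRIP1. Those of CTSD, MYBL1 and NRIP1 were 2.08, -2.81 and -2.13 without parental library II, where their calls ended too. In the SW480 libraries alone edgeR called 0 of the 10 and 0 of 16031 genes, with 5 of the 10 and 4822 of all at an unadjusted p under 0.05. With the composition trend removed, the log2 CPM of CTSD were 7.69 and 7.64 with ERB against 6.93 and 7.19 in parental cells. MYBL1 came to 0.12 and 0.87 against 1.94 and 2.14, and NRIP1 to -1.31 and 0.15 against 0.36 and 1.69. These differences were smaller than before removal. GREB1 stood at 1.53 and 1.66 against 0.03 and 0.5, and OLFM1 at 0.15 and 1.83 against 4.37 and 4.38.

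Parental SW620 and parental SW480 differed at 3 of 10 genes, against 18.0% of all. PDZK1 was higher in SW620, with 80 and 56 reads against 7 and 30 (2.38 ± 0.61, adjusted p = 0.01788). OLFM1, with 39 and 34 reads against 310 and 260 (-2.59 ± 0.44, adjusted p = 0.00162), and MYBL1, with 17 and 9 against 70 and 308 (-3.32 ± 0.77, adjusted p = 0.01067), were lower. No library of one line reached those of the other for these genes. The PDZK1 and MYBL1 calls ended when either SW620 library was left out, PDZK1's also without SW480 library I (adjusted p = 0.07) and MYBL1's without SW480 library II (0.0903). Reads of CTSD and NRIP1 may include those of overlapping transcripts on the same strand (AC068580.4 and AF127577.4), and whether counting used the strand is not stated, so CTSD, NRIP1, SIAH2, FKBP4 and RARA, which have antisense neighbours such as SIAH2-AS1, ITFG2-AS1 and RARA-AS1, are uncertain to that extent.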

How the data were processed

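Poly(A) RNA of the 16 libraries was made into stranded libraries (TruSeq kit, per the labels' protocols). The authors deposited raw read counts per gene and FPKM values (reads scaled by transcript length and library size). TopHat2 2.0.4, SAMtools, Picard 1.29, HTSeq 0.6.1, Cufflinks 2.1.1 and build GRCh37 are named per the submitters' processing notes. The role of each tool, and whether counts used the strand, are not given in the sources used here. Groups and the numbers I and II came from the labels. The 10 genes and the 4 lists of further genes were chosen with earlier results of these data known. All 10 genes are named in every comparison, further genes at most 3 per list and comparison by smallest p, and genes alike in pattern at most 3 for each of the 4 genes with the widest range of group means.

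Counts were filtered with edgeR's filterByExpr (edgeR 4.0.16, R 4.3.3), scaled with TMM factors (0.585 to 1.36) and fitted with 1 quasi-likelihood model over 16 libraries and 8 groups, so that groups of 2 share 1 estimate of the spread. P-values are two-sided and Benjamini-Hochberg adjusted over all genes tested, with a threshold of 0.05. CPM are TMM-scaled, and log2 CPM has a prior count of 2. Ratios of summed reads have exact 95% intervals that cover counting error only; 3 reads equal 0.158 to 0.235 CPM of a library. Alternatives were RLE factors, no low-count filter, DESeq2 1.42.0, limma-trend (3.58.1) on log2 FPKM (pseudocount 1 or 0.1, with or without a filter of 1 FPKM in 2 libraries), libraries of 1 line only, a replicate block, offsets for each library's trend with base composition and transcript size (5-df natural splines, known for 98% of genes), and leaving out each library. The fit of 1 line with offsets was added after seeing the data. A group left with a lone library borrows the spread of the rest, so a call lost or gained there says less than the fold change. Fits were also run on simulated counts with 1 spread for all genes, in which only well expressed genes were changed. Those runs do not cover the low genes of this panel. Coordinates are given for RefSeq promoters only, in their own build.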

Additional observations from a re-analysis of the deposited data

Results flagged for a closer look

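The difference of OLFM1 between ERB and empty vector was not the same in SW620 and in libraries labelled SW480, by a test of the interaction. The interaction was 5.68 on the log2 scale (SE 0.77, edgeR, adjusted p = 0.01224), with OLFM1 higher with ERB than with empty vector in both libraries labelled SW480 and lower in both SW620 libraries. The call ended in the 3 limma fits on FPKM (adjusted p = 0.1964 to 0.5687). It also ended in 4 of 8 fits with 1 library left out, those without an SW620 library. These called few genes of any kind, and the OLFM1 interaction in them was 5.51 to 5.9. Beside it stand the markers of parental SW480, at 2.34 and 2.46% of parental with empty vector and 21.7 and 22.7% with ERB, and those of parental SW620, at 28.8 and 74.6% in the control libraries labelled SW480 against 62 and 54.1% in the ERB ones; their part in the difference was not tested.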

How the results depend on the processing

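The number of panel genes called moved with the fit. Without a low-count filter it was 2 for ERB against empty vector in SW480 (1 in the reported fit), 3 for estradiol against DMSO (0), 6 for DMSO against no treatment (2), 2 for estradiol against no treatment (0) and 7 in the F test over SW620 groups (0). Of all 30911 genes that fit called 800, 1949, 2843, 662 and 3971 in the same order. With DESeq2 it was 3 for estradiol against no treatment, 1 for ERB against parental SW620 and 5 in the F test, beside 1092, 39 and 3257 of all 17464 genes. All 3 limma fits on FPKM called 0 for ERB against empty vector in SW480, 0 for the interaction, 0 for DMSO against no treatment and 3 for ERB against parental SW480 (5). Over all genes they called 169 to 259, 39 to 116, 899 to 1871 and 4547 to 5256 in that order. In libraries of 1 line only the counts were 0 for ERB against empty vector in SW480, 6 for estradiol against DMSO, 8 for DMSO, 4 for estradiol against no treatment, 1 for empty vector against parental SW480 (3), 1 and 0 for ERB against parental SW620 and SW480, and 10 in the F test. Of all 16533 genes in SW620 and 16031 in SW480, 0, 8759, 8065, 3455, 704, 57, 0 and 10256 were called. With offsets as well the panel counts were 0, 4, 7, 8, 4, 1, 1 and 9. All genes then gave 89, 2932, 7712, 6340, 2762, 657, 1701 and 9657. Offsets over 16 libraries gave 4 for DMSO, 4 for estradiol against no treatment, 5 for empty vector against parental SW480, 8 for ERB against parental SW480, 5 between parental lines (3) and 6 in the F test. Of all 17464 genes, 3602, 2701, 6947, 6705, 5725 and 4194 were called in that order. Panel counts also moved when 1 library was left out. A group then holds 1 library and calls over all genes moved as well, so those counts are not compared here.

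Estradiol against DMSO reversed for IGFBP4 with offsets, to -0.09 over 16 libraries and -0.12 in SW620 alone, and for SIAH2, to -0.37 and -0.38. OLFM1 (0.07) and GREB1 (0.03), each under its standard error, also changed sign there, to -0.79 and -0.82 and to -0.24 and -0.24. Of 374 alternative values of 39 fold changes, which do not include OLFM1 and GREB1 in that comparison, 275 kept direction and side of the threshold, 40 lost it, 55 gained it and 4 reversed; of 160 with a library left out, 130 and 30 kept and lost it. The causes were not tested.

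With a replicate block, DMSO against no treatment called 0 panel genes and 555 genes in all (1074 without), with FKBP4 at an adjusted p of 0.05542 and OLFM1 at 0.06607, and CTSD between empty vector and parental SW480 was at 2.16 (adjusted p = 0.05991). Same-numbered libraries of different groups deviated together in 9 of 28 pairs of groups (r over 0.1, range -0.74 to 0.66). These deviations include each library's composition trend, so the check cannot decide whether the numbers pair the libraries.

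Calls over all genes ranged, over the fits other than leaving out a library, from 555 to 8065 for DMSO (1074), 0 to 8759 for estradiol against DMSO (0), 133 to 6340 for estradiol against no treatment (302), 582 to 10256 in the F test (1042), 1 to 17 for ERB against empty vector in SW620 (1), 0 to 800 in SW480 (192), 16 to 131 for the interaction (33), 0 to 210 and 704 to 7096 for empty vector against parental in SW620 (0) and SW480 (5399), 1 to 657 and 0 to 8822 for ERB against parental (1 and 7756), and 2107 to 5725 between parental lines (3147). For estradiol against no treatment, 185 calls were higher and 117 lower, against 1296 and 1405 with offsets, and for ERB against empty vector in SW480 192 and 0, against 426 and 91. On log2(FPKM + 1) the median of all genes was 0.22 for DMSO against no treatment, and -0.35 for empty vector against parental SW480, against 0.00 and -0.11 on counts. Depth limits GREB1 (10 to 44 reads per library) and MYBL1, NRIP1, OLFM1 and PDZK1, each with at most 3 reads in at least 1 library.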
